A study of Mus musculus with 18 samples.

Results

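The vacuolar proton pump and the lysosome it acidifies were followed here through 40 of the 18922 genes in the deposited tables. All 21 genes whose symbols begin with Atp6v0 or Atp6v1 were taken as pump subunits, and 19 further genes were taken by name: 8 for proteins of the lysosomal membrane, 7 for hydrolases, 3 for lumenal proteins that are not enzymes, and Tfeb. The rule uses no measured value, and it leaves out the cathepsins. Of the 40 genes, 38 passed the filter on low counts. The other two were Atp6v1b1 and Atp6v1e2, with 0 to 4 counts in a library. Atp6v0d2 and Atp6v0a4 passed through their values in injured tissue, so that for them a rise was built into the filter. Their differences between injured and contralateral tissue are therefore given as descriptions with no p. Counts of calls below can still hold them, and their part in such a count is a description only.

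The lysosome is the compartment in which cells digest material they have engulfed, and microglia and macrophages carry many of them. Its pump, the V-ATPase, has a V1 part in the cytosol that splits ATP and a V0 part in the membrane that moves protons inward, and several subunits have alternative isoforms with their own genes. Neurons depend on the same pump to load synaptic vesicles, so in brain tissue its transcripts come from neurons as well as from phagocytes. Tfeb is a transcription factor that binds a short element, named CLEAR, in the promoters of many lysosomal genes. Trem2 encodes a surface receptor through which microglia and macrophages recognise lipids.

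Bulk polyadenylated RNA was sequenced from 18 mouse brain samples in 6 groups of 3 libraries. All mice, controls included, were C57Bl6 males aged 8 to 10 weeks with a photothrombotic stroke, made by closing cortical vessels with light: Rose Bengal at 50 mg/kg, then a laser of 525 nm and 125 mW over a circle of 3 mm. Wild-type and Trem2 knockout mice were compared 7 days later in the contralateral hemisphere, the peri-infarct zone and the infarct core, so the contralateral tissue is that of a brain with a stroke and not of an untouched one. The labels state neither how the knockout was made nor whether 1 number marks 1 animal across regions. P-values therefore measure only the spread between these samples, part of which may be technical.

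Totals ran from 16993978 to 17691801 counts in 17 libraries and reached 18713770 in wild-type core replicate 3, which stood apart. Its pan-neuronal markers (Rbfox3, Snap25, Syt1, Stmn2, Tubb3 and Map2) summed to 63.7 CPM (read counts scaled to library size with TMM factors) against 4089 and 4665 in the other two wild-type core libraries, and its 10 most abundant genes took 15.5% of counts against 3.27% to 5.38% elsewhere. Its macrophage markers summed to 11478 CPM against 1834 and 2611. Each count below is therefore given with all 18 libraries and again without this one. Trem2, the label check, read 75.8, 56.02 and 74.03 TPM, a level per transcript length, in wild-type contralateral tissue against 1.81, 2.47 and 0.9 in the knockout, and 443, 514 and 1338 against 13.3, 19.6 and 13.3 in the core, so every library matched its genotype label.

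RefSeq promoter sequences (GRCm38.p6, from 250 bases before to 50 after a start site) were in hand for 33 of the 40 genes and are shown here because many of the genes moved together. Those without an entry were Npc1, Atp6v0a2, Atp6v0d2, Atp6v1b2, Atp6v1c1, Atp6v1g1 and Atp6v1h. The palindrome CACGTG, the centre of the CLEAR element, was searched on both strands together with GTCACGTG and TCACGTGA, which contain it. It lay in 8 of the 33 genes (24.2%) and in 8.09% of the 27025 genes of the table. GTCACGTG lay in 18.2% against 2.55%, and TCACGTGA in 15.2% against 1.12%. The full form of 10 letters, with GT before CACGTG and AC after it, was searched too. That form lay in 0 of the 33 genes, against 0.37% of the 27025. A form this rare is too seldom met in 33 genes for the count to show whether its frequency differed. The stretches below come from 6 of those 8 genes and read 5′ to 3′ on the gene's own strand, with the capitals marking CACGTG and the letters beside it that continue it to GT before and AC after. Lamp1 lies on the plus strand at chr8:13159081-13159160, Gla on the minus strand at chrX:134601176-134601255 and Glb1 on the plus strand at chr9:114401012-114401053. Mcoln1 is on the plus strand at chr8:3500429-3500493, Atp6v0b on the minus strand at chr4:117887330-117887389 and Atp6v1a on the minus strand at chr16:44139367-44139408.
Lamp1: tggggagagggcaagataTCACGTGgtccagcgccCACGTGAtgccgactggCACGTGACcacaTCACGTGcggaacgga
Gla: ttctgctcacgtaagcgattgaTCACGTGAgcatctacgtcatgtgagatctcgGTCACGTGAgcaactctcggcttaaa
Glb1: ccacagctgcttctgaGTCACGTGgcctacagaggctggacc
Mcoln1: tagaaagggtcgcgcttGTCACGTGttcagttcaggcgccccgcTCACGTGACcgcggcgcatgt
Atp6v0b: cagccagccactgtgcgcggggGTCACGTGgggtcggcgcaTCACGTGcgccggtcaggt
Atp6v1a: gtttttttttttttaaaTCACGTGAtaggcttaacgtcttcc
Lamp1 held 4 copies, all within 80 bases. Over the whole window, 250 bases before to 50 after the start, 8 of the 32851 promoters in the table (0.0244%) held at least 4, at any spacing. The remaining genes with a copy were Atp6v0d1 and Atp6v0e. A match is a description of letters and was not tested as a site.

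In the infarct core the lysosomal genes proper rose nearly as a block, while the pump genes split. In the wild type 18 of the 19 named lysosomal genes were higher in the core than contralaterally and 0 lower (edgeR, adjusted p under 0.05 over all genes), with a median log2 fold change of 2.43. Of the 19 tested pump genes 4 were higher and 5 lower, with a median of -0.12. Atp6v0d2 and Atp6v0a4 are 2 of these 4, which leaves Atp6v0e and Atp6v1g1. For all 38 genes, with Atp6v0d2 and Atp6v0a4 still counted, this made 22 higher and 5 lower. Among all 15329 genes tested 29.1% were higher and 11.5% lower (40.6% in either direction), with a median of -0.03. The knockout core had 15 named lysosomal genes higher and 0 lower (median 1.75) and 3 pump genes higher and 7 lower (median -0.31), Atp6v0d2 among the 3, beside 19.7% and 3.31% of all genes.

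Without wild-type core replicate 3 the members' calls were more numerous in both genotypes. The wild-type core then had 18 named lysosomal genes higher (median 1.63) and 5 pump genes higher and 8 lower, beside 23.6% and 16.6% of the 15432 genes then tested (40.2% in either direction). In the knockout 17 named lysosomal genes were higher (median 1.74), and 5 pump genes were higher and 10 lower, beside 29.6% and 27.8% of all genes. Beside Atp6v0d2 and Atp6v0a4, the pump genes called higher were Atp6v0a2, Atp6v0e and Atp6v1g1 in both genotypes. All 27 wild-type and all 25 knockout calls of the full set were kept, in the same direction. A wild-type fit on the 6 core and contralateral libraries alone called 0 of 38 members and 0 of all genes.

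**Figure D1:**
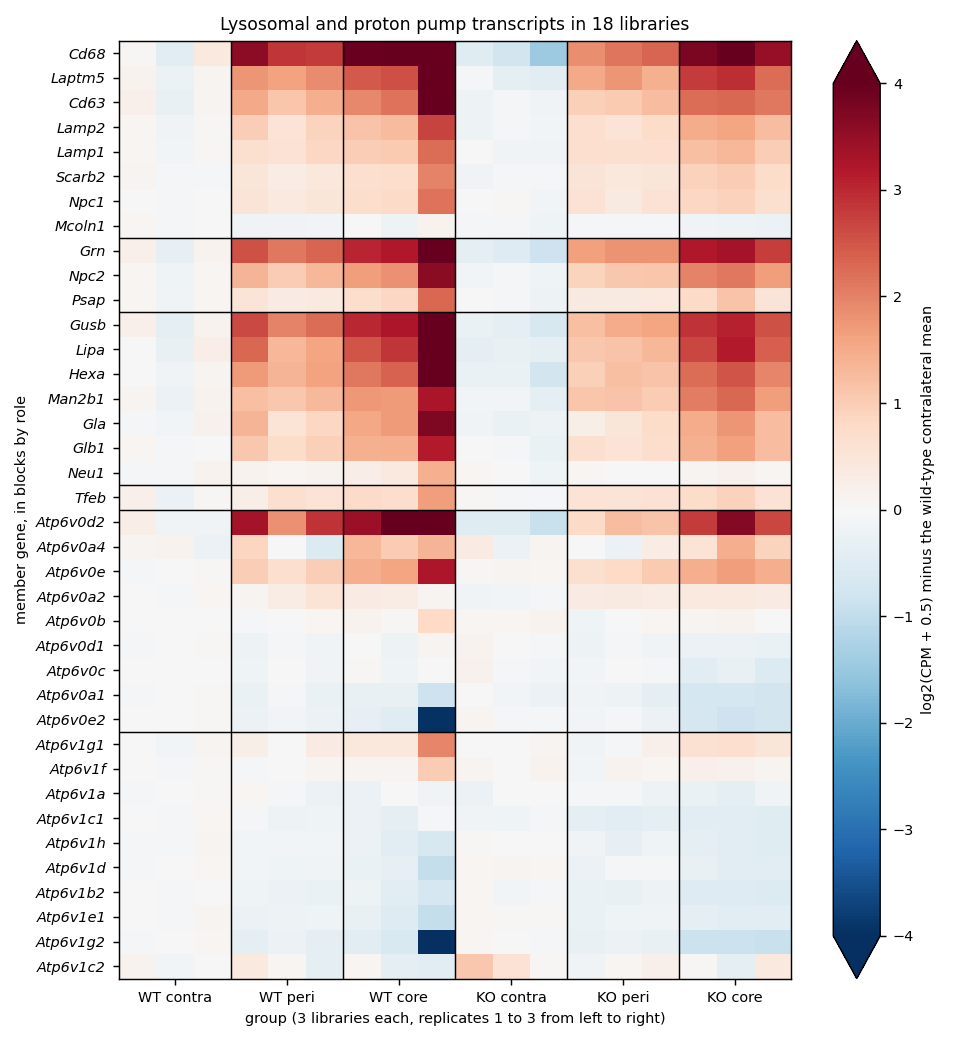
Heat map of the 38 tested genes (vertical, in blocks by role) in the 18 libraries (horizontal, 3 per group). Colour is the log2 CPM, with a small constant added, minus the wild-type contralateral mean. The named lysosomal blocks redden from contralateral through peri-infarct to core in both genotypes, the pump blocks hold both colours, and wild-type core replicate 3 is the most extreme column.

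Markers of phagocytes and neurons differed between the same groups. Summed macrophage markers (8 of 8 detected) ran at 84.1 to 228 CPM in wild-type contralateral tissue, 569 to 1331 in peri-infarct tissue and 1834 to 11478 in the core, and at 32.9 to 64.7, 327 to 562 and 1612 to 2724 in the knockout. Microglial markers (8 of 8) ran at 635 to 703 CPM in contralateral tissue, 1789.7 to 2142 in peri-infarct tissue and 2867 to 8630.3 in the core of wild types, and in the same order at 525 to 628, 1362 to 1587 and 2060.4 to 3171 CPM in knockouts. Pan-neuronal markers (6 of 6) ran at 6313 to 7691 CPM in contralateral tissue, 5184 to 5775 in peri-infarct tissue and 63.7 to 4665 in the core of wild types, and in the same order at 6047 to 6239, 4655 to 5025 and 3129.7 to 3246 CPM in knockouts. Summed phagocyte markers were thus higher and neuronal markers lower towards the core, and their part in the changes of the lysosomal and pump genes was not tested. In bulk tissue, more cells of a type and more RNA per cell cannot be told apart.

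The lysosomal membrane genes rose in the core with a spread of sizes that ran from Cd68 down to Mcoln1, which was not called. Cd68 (Entrez 12514), a heavily glycosylated membrane protein of phagocyte lysosomes, rose most. Cd68 stood at 25.6, 18.3 and 32.4 CPM in wild-type contralateral tissue, at 304, 183 and 175 in peri-infarct tissue and at 393, 482 and 2221 in the core. The knockout gave 17.6, 14.7 and 8.65, then 91.3, 112 and 126, then 340.1, 421 and 284 CPM. No library of an injured region overlapped its contralateral group in either genotype. The core rise in log2 units was 5.34 ± 0.63 with all libraries and 4.10 ± 0.31 without wild-type core replicate 3 in the wild type (edgeR adjusted p = 0.000113 and 2.48e-07), and 4.67 ± 0.61 with all libraries and 4.67 ± 0.31 without wild-type core replicate 3 in the knockout (0.000219 and 2.95e-08).

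Laptm5 (Entrez 16792), a lysosomal membrane protein of haematopoietic cells, followed. Laptm5 stood at 72.9, 56.5 and 71.5 CPM in wild-type contralateral tissue, at 228, 202 and 250.1 in peri-infarct tissue and at 366, 399.6 and 1292 in the core. Knockout libraries read 64.5, 51.3 and 48.5, then 189.9, 227 and 181, then 462, 524 and 318 CPM for Laptm5. The core rise was 3.36 ± 0.41 with all libraries and 2.51 ± 0.19 without wild-type core replicate 3 in the wild type, and 2.99 ± 0.40 with all libraries and 2.98 ± 0.18 without wild-type core replicate 3 in the knockout. Cd63 (Entrez 12512), a tetraspanin of late endosomes and lysosomes, came next. Cd63 stood at 114, 81.1 and 108 CPM in wild-type contralateral tissue, at 287, 214 and 273 in peri-infarct tissue and at 382, 454 and 1587 in the core. The knockout had Cd63 at 86.7, 93.5 and 89.8, then 195, 205 and 237, then 473, 493 and 429 CPM. Its core rise was 3.00 ± 0.42 with all libraries and 2.05 ± 0.15 without wild-type core replicate 3 in the wild type and 2.37 ± 0.41 with all libraries and 2.36 ± 0.14 without wild-type core replicate 3 in the knockout.

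Lamp1 (Entrez 16783) and Lamp2 (Entrez 16784), the main structural glycoproteins of the lysosomal membrane, rose less than Cd68, Laptm5 and Cd63 in fold. Lamp1 stood at 396, 353 and 388 CPM in wild-type contralateral tissue, at 589, 560.3 and 666 in peri-infarct tissue and at 752, 786 and 1789.6 in the core. In knockout tissue Lamp1 was at 386, 344 and 341, then 608, 593 and 610.1, then 879.8, 947 and 751 CPM. The groups did not overlap, and the core rise was 1.55 ± 0.27 with all libraries and 1.01 ± 0.10 without wild-type core replicate 3 in the wild type (edgeR adjusted p = 0.000564 and 1.85e-06) and 1.27 ± 0.26 with all libraries and 1.26 ± 0.09 without wild-type core replicate 3 in the knockout (0.00301 and 4.24e-08). Lamp2 stood at 159, 136 and 155 CPM in wild-type contralateral tissue, at 297, 219 and 279.8 in peri-infarct tissue and at 333, 361 and 967 in the core. Knockout Lamp2 was at 130.5, 145 and 137, then 239.5, 217 and 251.1, then 416, 448 and 352 CPM. This again left no overlap, with core rises of 1.88 ± 0.32 with all libraries and 1.20 ± 0.13 without wild-type core replicate 3 in the wild type and 1.56 ± 0.31 with all libraries and 1.55 ± 0.12 without wild-type core replicate 3 in the knockout.

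Scarb2, the receptor that carries glucocerebrosidase to the lysosome, rose in the core by 1.25 ± 0.27 with all libraries and 0.67 ± 0.09 without wild-type core replicate 3 in the wild type and by 0.97 ± 0.26 with all libraries and 0.96 ± 0.08 without wild-type core replicate 3 in the knockout. Npc1, which exports cholesterol from the lysosome, rose by 1.39 ± 0.29 with all libraries and 0.74 ± 0.09 without wild-type core replicate 3 in the wild type. In the knockout Npc1 differed by 0.81 ± 0.28 and was not called with all libraries (edgeR adjusted p = 0.0532), and it was called without wild-type core replicate 3 (0.81 ± 0.08, 1.09e-06). Mcoln1 (Entrez 94178), a calcium channel of the lysosomal membrane, stood outside this pattern. Mcoln1 stood at 41.6, 37.9 and 38.5 CPM in wild-type contralateral tissue, at 35.9, 35.7 and 36.6 in peri-infarct tissue and at 38.5, 34.05 and 43.6 in the core. In the knockout the Mcoln1 values were 38.3, 37.6 and 34.5, then 37.5, 37.9 and 37.8, then 35.3, 34.4 and 33.2 CPM. Its core differences of -0.02 ± 0.09 in wild-type mice and -0.10 ± 0.09 in the knockout were within the spread between libraries, and no comparison called it in either set of libraries.

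The 3 lumenal proteins that are not enzymes differed widely in size of response. Grn (Entrez 14824) codes for progranulin, which is cut into granulins in the lysosome. Grn stood at 127, 88.1 and 123 CPM in wild-type contralateral tissue, at 653, 479 and 558 in peri-infarct tissue and at 931, 1039.6 and 3942 in the core. Knockout values for Grn were 85.2, 77.8 and 62.5, then 351, 391 and 388, then 1031, 1119 and 767 CPM. Each step from contralateral to peri-infarct tissue to core was free of overlap between groups in both genotypes. The core rise was 4.12 ± 0.48 with all libraries and 3.12 ± 0.19 without wild-type core replicate 3 in the wild type (edgeR adjusted p = 0.000113 and 7.79e-08) and 3.69 ± 0.47 with all libraries and 3.69 ± 0.18 without wild-type core replicate 3 in the knockout (0.000204 and 4.59e-09).

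Npc2 (Entrez 67963) binds cholesterol in the lumen and hands it to Npc1. Npc2 stood at 108, 91.6 and 107 CPM in wild-type contralateral tissue, at 261, 205 and 257 in peri-infarct tissue and at 323, 361 and 1263 in the core. The knockout read 93.7, 96.8 and 90.9, then 191, 218 and 219.6, then 408, 446 and 329 CPM for Npc2. The core rise was 2.66 ± 0.40 with all libraries and 1.73 ± 0.13 without wild-type core replicate 3 in the wild type and 2.07 ± 0.39 with all libraries and 2.06 ± 0.12 without wild-type core replicate 3 in the knockout. Psap, the precursor of the saposins that help lipid hydrolases, was the named lysosomal gene with the highest level per transcript length, at 1744, 1522 and 1708 TPM in wild-type contralateral tissue. Its core rise was 1.47 ± 0.34 with all libraries and 0.76 ± 0.13 without wild-type core replicate 3 in the wild type. In the knockout it was 0.90 ± 0.34 and not called with all libraries (edgeR adjusted p = 0.0694), and called without wild-type core replicate 3 (0.89 ± 0.12, 1.87e-05).

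All 7 hydrolase genes rose in the wild-type core, and 6 of 7 in the knockout core. Gusb (Entrez 110006), the β-glucuronidase that trims glycosaminoglycans, rose most. Gusb stood at 36.9, 25.1 and 35.8 CPM in wild-type contralateral tissue, at 202, 127 and 152 in peri-infarct tissue and at 262, 308 and 1141 in the core. Knockout libraries had Gusb at 26.4, 24.2 and 20.4, then 75.1, 90.2 and 96.7, then 239, 273 and 192 CPM. The core rise was 4.13 ± 0.48 with all libraries and 3.12 ± 0.21 without wild-type core replicate 3 in the wild type (edgeR adjusted p = 0.000113 and 1.26e-07) and 3.31 ± 0.46 with all libraries and 3.30 ± 0.20 without wild-type core replicate 3 in the knockout (0.000248 and 1.33e-08).

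Lipa (Entrez 16889), the acid lipase that frees cholesterol and fatty acids from engulfed lipid, was close behind. Lipa stood at 29.5, 23.5 and 35.2 CPM in wild-type contralateral tissue, at 143, 73.2 and 88.6 in peri-infarct tissue and at 168, 215 and 888 in the core. For the knockout the Lipa values were 22.3, 23.6 and 21.9, then 61.5, 63.9 and 74.1, then 188, 264 and 154 CPM. The wild-type core rise was 3.85 ± 0.53 with all libraries and 2.70 ± 0.26 without wild-type core replicate 3, and the knockout rise 3.16 ± 0.52 with all libraries and 3.15 ± 0.25 without wild-type core replicate 3. Hexa (Entrez 15211), the α subunit of β-hexosaminidase A, which degrades GM2 ganglioside, also rose. Hexa stood at 82.6, 73.3 and 87.4 CPM in wild-type contralateral tissue, at 264, 208 and 246 in peri-infarct tissue and at 352, 419 and 1386 in the core. Hexa in the knockout was 66.8, 66.6 and 48.4, then 157, 187 and 177, then 383, 464 and 315 CPM. Its core rise was 3.15 ± 0.42 with all libraries and 2.25 ± 0.17 without wild-type core replicate 3 in the wild type and 2.68 ± 0.41 with all libraries and 2.67 ± 0.16 without wild-type core replicate 3 in the knockout.

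Among the remaining hydrolases, Gla (α-galactosidase A) rose in the core by 2.72 ± 0.47 with all libraries and 1.63 ± 0.21 without wild-type core replicate 3 in the wild type and by 1.75 ± 0.46 with all libraries and 1.74 ± 0.20 without wild-type core replicate 3 in the knockout. Glb1, the β-galactosidase, rose by 2.29 ± 0.36 with all libraries and 1.46 ± 0.12 without wild-type core replicate 3 and by 1.57 ± 0.35 with all libraries and 1.56 ± 0.11 without wild-type core replicate 3. For Man2b1, the acid α-mannosidase, the rises were 2.43 ± 0.34 with all libraries and 1.71 ± 0.15 without wild-type core replicate 3 and 2.22 ± 0.34 with all libraries and 2.22 ± 0.15 without wild-type core replicate 3. Neu1 (Entrez 18010), the sialidase that trims sialic acids, was the weakest of the hydrolases. Neu1 stood at 42.8, 42.2 and 49.3 CPM in wild-type contralateral tissue, at 49.8, 47.5 and 49.7 in peri-infarct tissue and at 53.3, 58.4 and 121 in the core. Knockout libraries had 46.8, 45.1 and 39.8, then 47.6, 45.3 and 44.9, then 48.5, 50.8 and 47.1 CPM for Neu1. It rose by 0.79 ± 0.22 with all libraries and 0.31 ± 0.08 without wild-type core replicate 3 in the wild type, while the knockout difference of 0.15 ± 0.22 was not called (edgeR adjusted p = 0.62, and 0.107 without wild-type core replicate 3). Whether the genotypes differ in this response is the subject of the interaction tests further on.

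Tfeb (Entrez 21425) itself was a low-level transcript that rose in the core of both genotypes. Tfeb stood at 8.53, 6.22 and 7.69 CPM in wild-type contralateral tissue, at 8.98, 11.9 and 11.05 in peri-infarct tissue and at 12.8, 12.5 and 24.6 in the core. In the knockout Tfeb read 7.71, 6.99 and 7.08, then 11.1, 10.9 and 11.2, then 12.6, 14.5 and 11.4 CPM. Core and contralateral libraries did not overlap, and the rise was 1.15 ± 0.23 with all libraries and 0.76 ± 0.15 without wild-type core replicate 3 in the wild type (edgeR adjusted p = 0.0014 and 0.000778) and 0.82 ± 0.22 with all libraries and 0.81 ± 0.13 without wild-type core replicate 3 in the knockout (0.0169 and 9.89e-05). Of the genes with CACGTG in the promoter window, Lamp1, Gla, Glb1 and Atp6v0e rose in both cores, while Mcoln1, Atp6v0b and Atp6v1a were called in neither core with either set of libraries. Atp6v0d1, the remaining one of the 8, was called lower in the knockout core without wild-type core replicate 3 (-0.29 ± 0.07, edgeR adjusted p = 0.00245) and was not called otherwise. Genes with 0 copies in the window went both ways. They included Cd68, Grn, Gusb, Cd63 and Laptm5, among the largest rises, and Atp6v0a1, Atp6v1d and Atp6v1e1, which fell in both cores. A link between the motif and the direction of change was not tested.

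**Figure D2:**
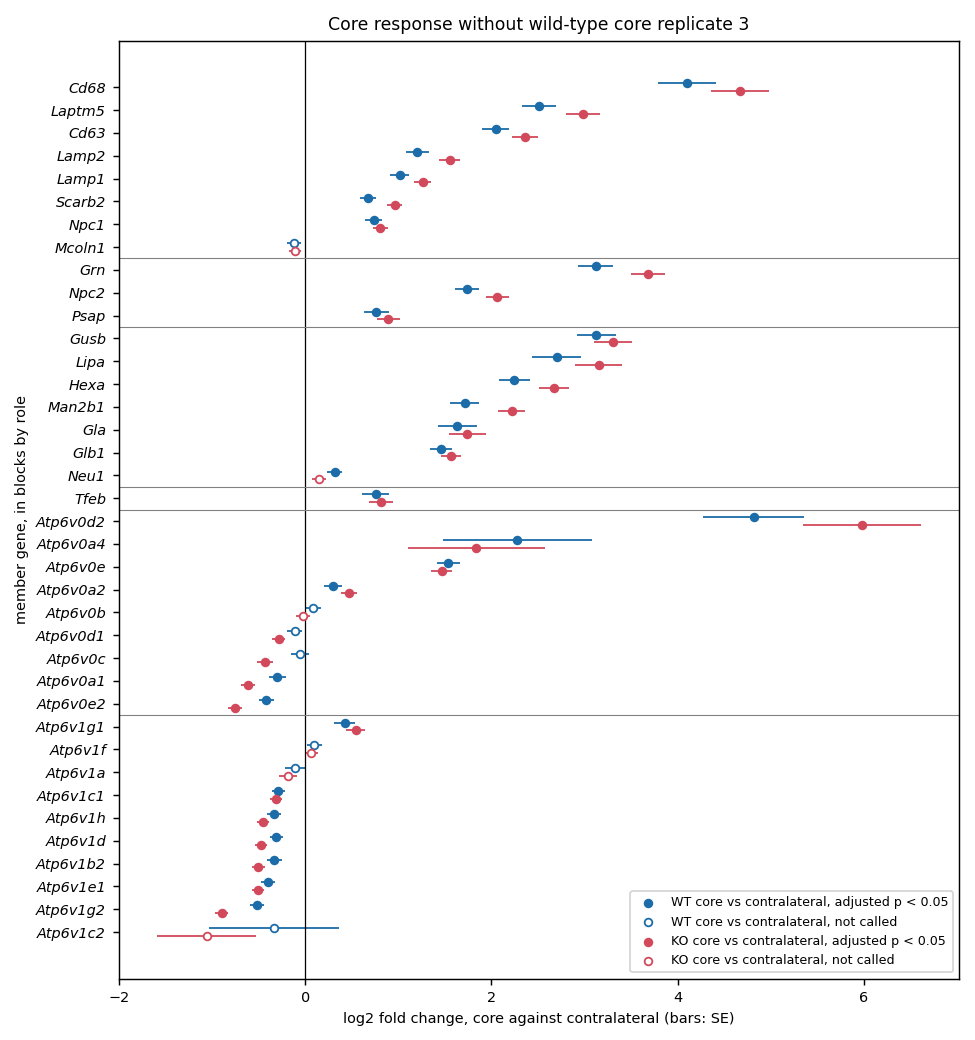
Log2 fold change of core against contralateral tissue (horizontal, bars show the SE) for the 38 tested genes (vertical, in blocks by role), in the wild type (blue) and the knockout (red), without wild-type core replicate 3. Filled points passed an adjusted p under 0.05 and open points did not. The named lysosomal genes lie to the right of 0 except Mcoln1, and the pump genes lie on both sides, with Atp6v0d2 at 4.82 and 5.98.

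In the membrane part of the pump, V0, a few isoform genes rose and the widely used subunits fell or were not called. Atp6v0d2 (Entrez 242341), the d subunit isoform known from osteoclasts and macrophages, was almost silent outside the injury. Atp6v0d2 stood at 0.622, 0.352 and 0.352 CPM in wild-type contralateral tissue, at 8.80, 2.84 and 6.39 in peri-infarct tissue and at 9.59, 15.96 and 73.1 in the core. Knockout libraries gave 0.173, 0.169 and 0, then 1.09, 1.68 and 1.55, then 5.98, 11.5 and 5.39 CPM. The raw counts summed over the 3 libraries of a group were 23, 311 and 1570 in wild-type contralateral, peri-infarct and core tissue, and 6, 76 and 417 in the knockout. The core exceeded contralateral tissue by a ratio of 70.6 (95% exact interval 46.9 to 112) in wild-type mice and 66.9 (30.5 to 183) in the knockout, intervals that cover counting error only. The fitted difference was 6.19 ± 0.84 with all libraries and 4.82 ± 0.54 without wild-type core replicate 3 in the wild type and 5.98 ± 0.97 with all libraries and 5.98 ± 0.64 without wild-type core replicate 3 in the knockout.

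Its partner isoform Atp6v0d1 (Entrez 11972), which most cells use, did not share the rise. Atp6v0d1 stood at 189, 198 and 200.3 CPM in wild-type contralateral tissue, at 169, 189.6 and 177 in peri-infarct tissue and at 194, 169 and 209.9 in the core. Atp6v0d1 in the knockout was 215, 192 and 191, then 169, 184 and 176, then 166, 165 and 162 CPM. The wild-type core difference was -0.04 ± 0.10 with all libraries and -0.12 ± 0.08 without wild-type core replicate 3 and was not called, and the knockout difference of -0.28 ± 0.10 (edgeR adjusted p = 0.0573) was called lower without wild-type core replicate 3 (-0.29 ± 0.07, 0.00245). The isoforms of the small e subunit differed in direction. Atp6v0e (Entrez 11974) rose in the core, and its paralog Atp6v0e2 (Entrez 76252) was lower in every core library than in every contralateral one. Atp6v0e stood at 16.7, 17.3 and 18.1 CPM in wild-type contralateral tissue, at 35.2, 27.8 and 34.9 in peri-infarct tissue and at 48.5, 52.7 and 168 in the core. Knockout Atp6v0e was 17.9, 18.7 and 18.5, then 27.1, 30.8 and 36.6, then 48.7, 56.1 and 48.3 CPM. Atp6v0e2 stood at 317, 314 and 331 CPM in wild-type contralateral tissue, at 275, 299.9 and 272 in peri-infarct tissue and at 253, 228 and 20.03 in the core. Atp6v0e2 in the knockout was 346, 304 and 309.7, then 295, 304 and 276, then 199, 179 and 193 CPM.

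The core rise of Atp6v0e was 2.37 ± 0.36 with all libraries and 1.54 ± 0.12 without wild-type core replicate 3 in the wild type and 1.47 ± 0.35 with all libraries and 1.47 ± 0.11 without wild-type core replicate 3 in the knockout. For Atp6v0e2 the wild-type core library of replicate 3 lay far below the other core libraries. Its difference was -0.94 ± 0.54 in wild-type mice and -0.75 ± 0.54 in the knockout, not called with all libraries (edgeR adjusted p = 0.163 and 0.327). Without that library Atp6v0e2 was called lower, at -0.42 ± 0.08 in wild-type mice and -0.76 ± 0.07 in the knockout, with edgeR adjusted p = 0.000618 and 3.91e-07.

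The a subunit anchors the pump in a given membrane, and its neuron-rich isoform Atp6v0a1 (Entrez 11975) fell in the core of both genotypes. Atp6v0a1 stood at 421, 434 and 449 CPM in wild-type contralateral tissue, at 359.9, 414 and 359 in peri-infarct tissue and at 354, 354 and 246 in the core. In knockout libraries Atp6v0a1 was 442, 399.6 and 368, then 391, 373 and 334, then 268, 267 and 258 CPM. The change was -0.45 ± 0.15 with all libraries and -0.30 ± 0.09 without wild-type core replicate 3 in the wild type (edgeR adjusted p = 0.0255 and 0.0135) and -0.61 ± 0.15 with all libraries and -0.62 ± 0.08 without wild-type core replicate 3 in the knockout (0.0078 and 9.95e-06). Atp6v0a2, an isoform of Golgi and endosomes, rose in the knockout core by 0.48 ± 0.10 with all libraries and 0.47 ± 0.09 without wild-type core replicate 3. In the wild-type core Atp6v0a2 differed by 0.23 ± 0.10 (edgeR adjusted p = 0.0793) and was called higher without wild-type core replicate 3 (0.29 ± 0.10, 0.0228). Atp6v0a4, the kidney isoform, did not exceed 1.36 CPM in the wild-type core, with a fitted difference of 2.37 ± 0.78 there.

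Atp6v0c (Entrez 11984) codes for the proteolipid of the proton-carrying ring and had the highest level per transcript length of the pump genes, at 1567, 1588 and 1509 TPM in wild-type contralateral tissue. Atp6v0c stood at 629, 635 and 619.7 CPM in wild-type contralateral tissue, at 553, 630.3 and 572 in peri-infarct tissue and at 646, 563 and 629 in the core. Atp6v0c in the knockout read 710.0, 609 and 582, then 587, 629 and 597, then 470.4, 513 and 434 CPM. The wild-type core groups overlapped (-0.04 ± 0.13, edgeR adjusted p = 0.822), while the knockout core was lower, at -0.42 ± 0.13 with all libraries and -0.43 ± 0.09 without wild-type core replicate 3 (0.0274 and 0.000715). Atp6v0b, the other ring subunit, was called in neither core.

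In the ATP-splitting part, V1, several shared subunits fell by small and even amounts. Atp6v1a (Entrez 11964), the catalytic subunit, was not among them. Atp6v1a stood at 596, 631 and 645 CPM in wild-type contralateral tissue, at 663, 598 and 525 in peri-infarct tissue and at 535, 624 and 565 in the core. Atp6v1a in the knockout was 535, 628 and 626, then 586, 585 and 547, then 523, 486 and 572 CPM. The groups overlapped, with core differences of -0.12 ± 0.13 and -0.18 ± 0.13, neither called. Atp6v1b2 (Entrez 11966), the brain isoform of the B subunit that pairs with it, fell. Atp6v1b2 stood at 749, 714 and 755 CPM in wild-type contralateral tissue, at 657, 629 and 614 in peri-infarct tissue and at 644, 535 and 463 in the core. For the knockout Atp6v1b2 was 775, 687 and 723, then 611, 603 and 641, then 519, 522 and 507 CPM. The change was -0.43 ± 0.13 with all libraries and -0.33 ± 0.08 without wild-type core replicate 3 in the wild type (edgeR adjusted p = 0.0195 and 0.00461) and -0.50 ± 0.13 with all libraries and -0.50 ± 0.07 without wild-type core replicate 3 in the knockout (0.0146 and 3.09e-05).

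Subunits of the stalks and the regulatory subunit moved the same way. Atp6v1e1 (Entrez 11973), a stalk subunit, fell from 297, 288 and 323 CPM in wild-type contralateral tissue to 246, 214 and 157 in the core, and from 319, 316 and 315 to 232, 221 and 219.7 in the knockout, with peri-infarct libraries at 257, 262 and 269 and 249.7, 266 and 276 in between. Atp6v1d (Entrez 73834), part of the rotor, went from 222, 224 and 240.1 CPM through 211, 201 and 207 to 189, 180.2 and 117 in the wild type, and from 239, 246 and 243 through 193, 216 and 218 to 186, 169.6 and 172 in the knockout. All core libraries lay below all contralateral ones for both genes. Atp6v1e1 changed by -0.56 ± 0.14 and -0.50 ± 0.14 in the wild-type and knockout core, and Atp6v1d by -0.50 ± 0.14 and -0.46 ± 0.14, all called by edgeR (adjusted p from 0.00555 to 0.0322).

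Atp6v1h (Entrez 108664), which regulates the coupling of V1 to V0, followed the same course. Atp6v1h stood at 192, 190.2 and 213 CPM in wild-type contralateral tissue, at 182, 185 and 183 in peri-infarct tissue and at 168, 146 and 127 in the core. Atp6v1h in the knockout was 206, 195 and 196, then 178, 159 and 174, then 150.2, 147 and 141 CPM. It changed by -0.43 ± 0.10 with all libraries and -0.34 ± 0.08 without wild-type core replicate 3 in the wild type and by -0.45 ± 0.10 with all libraries and -0.45 ± 0.07 without wild-type core replicate 3 in the knockout. Atp6v1c1 (Entrez 66335), which controls assembly of V1 with V0, fell in the knockout core, at -0.31 ± 0.10 with all libraries and -0.32 ± 0.06 without wild-type core replicate 3. In the wild type Atp6v1c1 differed by -0.20 ± 0.10 (edgeR adjusted p = 0.119) and was called lower without wild-type core replicate 3 (-0.29 ± 0.07, 0.00312).

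The G subunit isoforms differed in direction. Atp6v1g1 (Entrez 66290) is widespread, and Atp6v1g2 (Entrez 66237) is the neuronal isoform. Atp6v1g1 stood at 94.3, 87.7 and 103 CPM in wild-type contralateral tissue, at 110.5, 94.05 and 120.4 in peri-infarct tissue and at 128, 127 and 367 in the core. Atp6v1g1 in the knockout read 94.6, 95.4 and 103, then 86.4, 91.7 and 109, then 143, 151 and 134 CPM. Atp6v1g2 stood at 361, 368 and 396 CPM in wild-type contralateral tissue, at 291, 321 and 289.7 in peri-infarct tissue and at 283, 243 and 2.27 in the core. Knockout values of Atp6v1g2 were 396, 376 and 363, then 307, 316 and 307, then 205, 204 and 203 CPM. Atp6v1g1 was higher and Atp6v1g2 lower in every core library than in every contralateral library of the same genotype. Atp6v1g1 rose in the wild-type core by 1.13 ± 0.31 with all libraries and 0.42 ± 0.11 without wild-type core replicate 3. In the knockout Atp6v1g1 differed by 0.55 ± 0.30 (edgeR adjusted p = 0.211), and was called higher without wild-type core replicate 3 (0.54 ± 0.10, 0.000336). Atp6v1g2, with 2.27 CPM in that library, was not called with it (-1.09 ± 0.85 and -0.89 ± 0.84 in the wild-type and knockout core, edgeR adjusted p = 0.287 and 0.446). Without it the changes were -0.52 ± 0.08 and -0.90 ± 0.07 (7.79e-05 and 5.11e-08).

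The balance of higher and lower pump genes in the wild-type core was different in a fit that changed both the scale and the test, and the same (4 higher and 5 lower) with DESeq2 size factors in edgeR, which changed the scaling alone. On log2(TPM + 1), tested with limma-trend, the median of all genes in that comparison was -0.34 instead of -0.03, and all genes split into 3110 higher and 6220 lower where edgeR had 4456 and 1770. Members were then 22 higher and 11 lower, with 4 pump genes higher and 10 lower, and 18 named lysosomal genes higher as before. In the knockout core the limma-trend fit on log2(TPM + 1) had an all-gene median of -0.12 and gave 19 members higher and 6 lower. Summed over genes, the named lysosomal genes held 3028 to 3588 TPM in wild-type contralateral tissue, 5553 to 6912 in peri-infarct tissue and 8234 to 18409 in the core. The pump genes held 7358 to 7545, 6271 to 6613 and 4140 to 6301 TPM in the same tissues. In the knockout these sums were 2789 to 3134, 5388 to 5490 and 7882 to 10284 TPM for the lysosomal genes, and 7248 to 7530, 6498 to 6605 and 5400 to 5470 for the pump. The order of the sums thus turned over, with the pump above the named lysosomal genes contralaterally and below them in every core library.

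Shares of one isoform within a subunit can be compared per transcript length inside a library. The share of Atp6v0d2 in d subunit TPM was 0.203, 0.109 and 0.107% in wild-type contralateral tissue, 3.10, 0.913 and 2.14% in peri-infarct tissue and 2.93, 5.46 and 17.6% in the core. The knockout had 0.0482, 0.0551 and 0%, then 0.395, 0.548 and 0.538%, then 2.14, 4.10 and 1.99%. Within genotypes the core exceeded contralateral tissue by 5.62 percentage points and peri-infarct tissue exceeded it by 1.18, as a description. Within regions the knockout was lower than the wild type by 2.53 percentage points (exact 2-sided permutation over 8000 arrangements, p = 0.0202, adjusted over 9 share tests 0.026). With 1 library left out the adjusted p passed 0.05 in 5 fits, with an unadjusted exact permutation p of 0.0402 to 0.185. The reason was not tested. The size of this genotype difference moved most without wild-type core replicate 3. As knockout minus wild type it was -1.04 points without wild-type core replicate 3 (exact permutation, adjusted p = 0.0518), -2.36 without wild-type peri-infarct replicate 1 (0.0527), and between -2.76 and -2.41 without any 1 knockout core library (0.126 to 0.238). The permutation treats the regions as separate samples.

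The neuronal G2 isoform took a smaller share in injured tissue. It made up 71.8, 73.7 and 71.9% of G subunit TPM in wild-type contralateral tissue, 63.7, 69.5 and 61.6% in peri-infarct tissue and 59.5, 56.1 and 0.404% in the core. Knockout shares were 73.6, 72.4 and 70.1%, 70.3, 69.8 and 65.2% and 48.8, 47.5 and 50.3%. The core share was 28.5 percentage points lower than the contralateral one within genotypes (exact permutation over 400 arrangements, p = 0.005, the smallest they can give, adjusted 0.009) and 18.9 points lower without wild-type core replicate 3, and the peri-infarct share was 5.60 points lower (p = 0.01, adjusted 0.015). Tcirg1, the a3 isoform of osteoclast and macrophage lysosomes and not one of the 40 genes, took 3.84, 3.19 and 3.62% of a subunit TPM in wild-type contralateral tissue, 10.9, 8.67 and 10.4% in peri-infarct tissue and 15.2, 17.5 and 47.2% in the core. In the knockout it took 3.28, 3.52 and 3.14%, 8.06, 11.04 and 10.1% and 20.8, 25.1 and 19.1%. The core share exceeded the contralateral one by 20.7 points (exact permutation p = 0.005, adjusted 0.009), or 15.6 without wild-type core replicate 3, and the peri-infarct share exceeded it by 6.43 (p = 0.005, adjusted 0.009).

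Genotype differences of the G2 and a3 shares did not pass. Across regions they were 4.42 points higher (exact permutation p = 0.791, adjusted 0.89) and 1.83 points lower (p = 0.893, adjusted 0.893) in the knockout, and both changed sign without wild-type core replicate 3. For the e subunit, described without a test, Atp6v0e2 took 85.7% to 86.1% of the TPM in wild-type contralateral tissue, 71.8% to 78.0% in peri-infarct tissue and 63.3, 58.9 and 3.84% in the core. In the knockout it took 84.2% to 86.4%, 71.2% to 78.0% and 51.3% to 57.4%. The pan-neuronal sums given above stood in the same order of tissues, and their part in these shares was not tested.

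**Figure D3:**
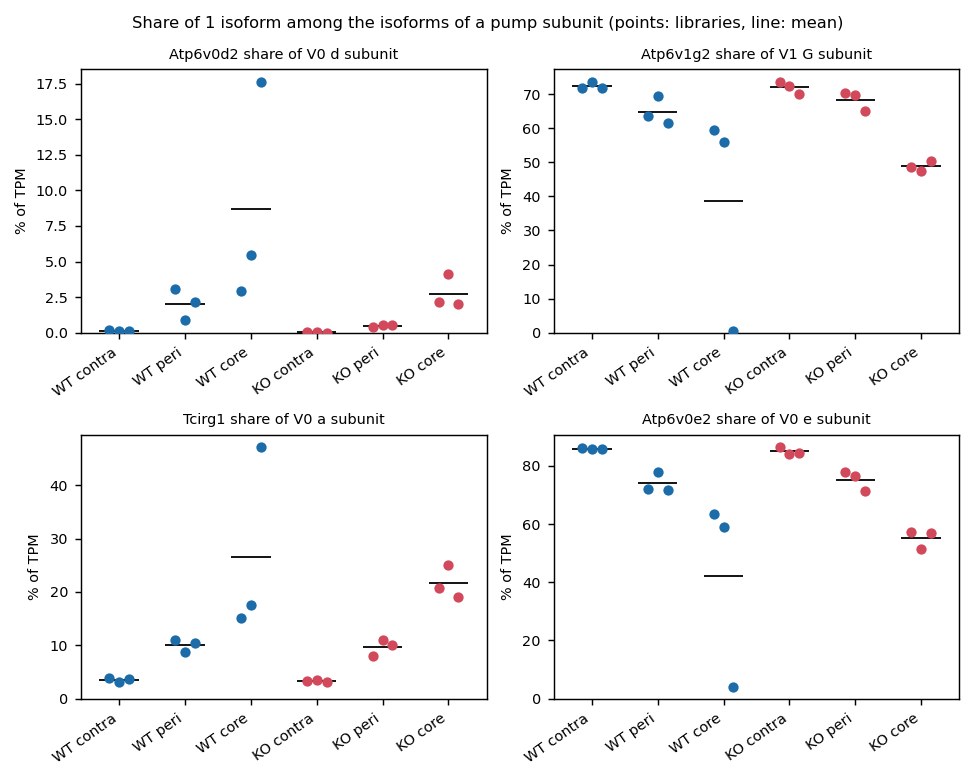
Share of 1 isoform in the summed TPM of its subunit (vertical, percent) in the 6 groups (horizontal), for Atp6v0d2, Atp6v1g2, Tcirg1 and Atp6v0e2. Points are libraries, blue for wild type and red for knockout, and lines are group means. The d2 and a3 shares climb and the G2 and e2 shares drop towards the core, and wild-type core replicate 3 is the extreme point of each panel.

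At the border of the lesion the genes called were again mostly named lysosomal ones. With all libraries edgeR called 6 of 38 members higher and 0 lower in wild-type peri-infarct against contralateral tissue, beside 3.27% and 0.00652% of all genes. These were Atp6v0d2 (3.74 ± 0.80), Cd68 (3.12 ± 0.57), Grn (2.32 ± 0.44), Gusb (2.30 ± 0.44), Laptm5 (1.76 ± 0.39) and Hexa (1.56 ± 0.39), and the 5 other than Atp6v0d2 had adjusted p from 0.0224 to 0.0449. In the knockout 7 were higher and 0 lower, beside 4.42% and 0.0522% of all genes (4.48% in either direction). They were Cd68 (3.01 ± 0.57), Grn (2.32 ± 0.44), Gusb (1.88 ± 0.44), Laptm5 (1.86 ± 0.39), Hexa (1.52 ± 0.39), Man2b1 (1.29 ± 0.33) and Atp6v0a2 (0.42 ± 0.10). Atp6v0d2 in the knockout was 3.59 ± 1.04 from 6 against 76 counts.

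These counts depended on single libraries. Leaving out any 1 of the wild-type contralateral libraries, or wild-type peri-infarct replicate 1 or 3, gave 0 calls among the members in the wild type. In the knockout 0 were left without any 1 contralateral library, and 2 or 3 without 1 peri-infarct library. Calls among all genes fell in the same fits. Those wild-type fits called 0 to 18 of all genes higher and 0 lower, where the full set had 501 higher. In the knockout, 54 to 82 of all genes were higher without 1 contralateral library and 161 to 262 without 1 peri-infarct library. The full set had 678 there. Without wild-type core replicate 3 the wild type had 20 members higher and 6 lower (14.2% and 5.34% of all genes) and the knockout 20 higher and 8 lower (13.7% and 7.61%). In that fit 17 of the 19 named lysosomal genes were higher in each genotype, all but Mcoln1 and Neu1, with medians of 0.93 and 0.70. The other 3 members higher in each genotype were pump genes, where a rise of Atp6v0d2 or Atp6v0a4 is a description only. Lamp1 rose by 0.64 ± 0.09 and 0.69 ± 0.09, Npc2 by 1.20 ± 0.12 and 1.09 ± 0.12, Lipa by 1.75 ± 0.24 and 1.49 ± 0.25, and Tfeb by 0.47 ± 0.13 and 0.54 ± 0.13. The pump falls were already present there, with Atp6v1g2 at -0.36 ± 0.07 and -0.36 ± 0.07 and Atp6v1b2 at -0.26 ± 0.07 and -0.31 ± 0.07.

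Between core and border the named lysosomal genes rose again in the wild type. With all libraries 17 members were higher and 0 lower in wild-type core against peri-infarct tissue, 15 of them named lysosomal genes and the others Atp6v0d2 and Atp6v0e, beside 12.3% and 0.678% of all genes. The largest were Atp6v0d2 (2.45 ± 0.66), Cd68 (2.23 ± 0.55) and Lipa (2.06 ± 0.50). Without wild-type core replicate 3, 10 of these 17 remained, beside 4.88% of all genes, with Lipa at 0.94 ± 0.25, Grn at 0.84 ± 0.18 and Gusb at 0.86 ± 0.20. Atp6v0d2, Cd68, Gla, Lamp2, Man2b1, Npc1 and Scarb2 were lost, with Cd68 at 1.02 ± 0.29 (edgeR adjusted p = 0.0528). A fit with the replicate number as a block called 0, as did fits without any 1 peri-infarct library and a fit on the compared libraries alone. These fits also called 0 of all genes, except that the fit without peri-infarct replicate 1 called 95 higher and 3 lower.

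In the knockout edgeR called 0 members and 0 of all genes between core and border with all libraries. At an unadjusted p under 0.05 there were 16 members, beside 2857 of the 15329 genes tested. DESeq2 called 7 members, beside 675 higher and 220 lower of all genes. Among the members the smallest edgeR p values belonged to Atp6v0d2 (2.40 ± 0.70), Gusb (1.43 ± 0.43) and Lipa (1.60 ± 0.49). Without wild-type core replicate 3, a library in neither group, 21 members were higher and 6 lower, beside 24.3% and 15.8% of all genes. Of the 21, 16 were named lysosomal genes and 5 pump genes, where a rise of Atp6v0d2 or Atp6v0a4 is a description only. Among genes above 1 CPM on average, the highest were then Atp6v0d2 (2.46 ± 0.45), Cd68 (1.73 ± 0.27) and Lipa (1.67 ± 0.24), and the lowest Atp6v0e2 (-0.55 ± 0.07), Atp6v1g2 (-0.54 ± 0.07) and Atp6v0a1 (-0.40 ± 0.08).

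Trem2 knockout and wild type were compared within each region and over the mean of the 3 regions. With all libraries edgeR called 0 of the 38 members in any of these, while all genes tested gave 0.00652%, 0.00652% and 0.013% in contralateral, peri-infarct and core tissue and 0.228% for the mean (0.0913% higher). At an unadjusted p under 0.05 the members numbered 0, 2 and 13 by region and 8 for the mean. Of the 15329 genes tested, 454, 495 and 1822 had such a p by region and 1997 for the mean. DESeq2 called 0, 0 and 1 members by region, and 4 for the mean. It called 3, 9 and 43 of all genes higher and 11, 8 and 51 lower by region. For the mean it called 165 higher and 255 lower. Without wild-type core replicate 3 edgeR still called 0 in contralateral and in peri-infarct tissue (0.0389% and 0.117% of all genes), with 6 and 10 members at an unadjusted p under 0.05. The number of all genes at that unadjusted p is not given for this fit, so these member counts are not read as a result. In contralateral tissue the smallest p values belonged to Atp6v1c2 (1.17 ± 0.56, at or under 1.32 CPM), Cd68 (-0.90 ± 0.53) and Atp6v0d2 (-1.90 ± 1.20). In peri-infarct tissue they belonged to Atp6v0d2 (-2.05 ± 0.70), Atp6v1c1 (-0.23 ± 0.10) and Gusb (-0.88 ± 0.42). In the core they were those of Atp6v0d2 (-2.11 ± 0.65), Neu1 (-0.67 ± 0.22) and Gusb (-1.28 ± 0.43), where a negative value means lower in the knockout.

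The direction in the core hung on 1 library. With it all 19 named lysosomal genes had a negative difference in the knockout core (median -0.67, all genes -0.01), and without it 14 of the 19 were positive (median 0.08, all genes 0.02). Cd68 moved from -1.57 ± 0.53 to -0.31 ± 0.29 and Grn from -1.02 ± 0.42 to 0.00 ± 0.18. Wild-type core replicate 3 was also the library with the highest macrophage marker sum, and the part of that in the difference was not tested. The members called in the core without it were all pump genes and all lower in the knockout: Atp6v1g2 (-0.35 ± 0.08, edgeR adjusted p = 0.0283), Atp6v0a1 (-0.40 ± 0.09, 0.0283) and Atp6v0e2 (-0.32 ± 0.08, 0.0419), 3 of 38 beside 2.06% of all genes. Pan-neuronal markers were at 4089 and 4665 CPM in the 2 wild-type core libraries then compared and at 3129.7 to 3246 in the knockout core, and their part in this was not tested.

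The 6 genes called in the mean over regions described below can also be read outside the core. They were chosen by that call, which uses these same values, so their separation here is a description. Cd68 was at 25.6, 18.3 and 32.4 CPM in wild-type and 17.6, 14.7 and 8.65 in knockout contralateral tissue, and at 304, 183 and 175 against 91.3, 112 and 126 in peri-infarct tissue, without overlap in either region. Grn was at 127, 88.1 and 123 against 85.2, 77.8 and 62.5 CPM contralaterally and at 653, 479 and 558 against 351, 391 and 388 at the border, also apart. Gusb overlapped contralaterally (36.9, 25.1 and 35.8 against 26.4, 24.2 and 20.4) and was apart at the border (202, 127 and 152 against 75.1, 90.2 and 96.7). Atp6v0d2 had 23 counts over the wild-type and 6 over the knockout contralateral libraries, a ratio of 3.92 (95% exact interval 1.55 to 11.8), and 311 against 76 at the border, a ratio of 4.16 (3.23 to 5.42), in counting error only. Atp6v1c1 was at 286, 279.7 and 306 against 261, 258 and 273 CPM contralaterally and 275, 250.7 and 257 against 225, 218 and 225 at the border. Atp6v0a1 overlapped in both regions, at 421, 434 and 449 against 442, 399.6 and 368 CPM contralaterally and 359.9, 414 and 359 against 391, 373 and 334 at the border. None of these single-region differences passed adjustment in edgeR, with adjusted p = 0.0736 for Gusb at the border as the lowest without wild-type core replicate 3. Macrophage marker sums were also lower there in the knockout, at the values given above, and their part was not tested.

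Averaged over the 3 regions without wild-type core replicate 3, 6 members were lower in the knockout and 0 higher, beside 5.2% and 2.26% of all genes. They were Gusb (-0.53 ± 0.11, edgeR adjusted p = 0.0144), Atp6v1c1 (-0.17 ± 0.04, 0.015), Cd68 (-0.73 ± 0.16, 0.017), Atp6v0d2 (-1.56 ± 0.35, 0.0181), Grn (-0.39 ± 0.10, 0.0299) and Atp6v0a1 (-0.18 ± 0.05, 0.0309). With all libraries the same genes stood at -0.87 ± 0.25, -0.20 ± 0.06, -1.16 ± 0.31, -2.02 ± 0.50, -0.73 ± 0.24 and -0.14 ± 0.08 and were not called, at adjusted p of 0.14 or more. The mean treats the 3 regions as separate samples, which they are not if 1 number is 1 animal.

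**Figure D4:**
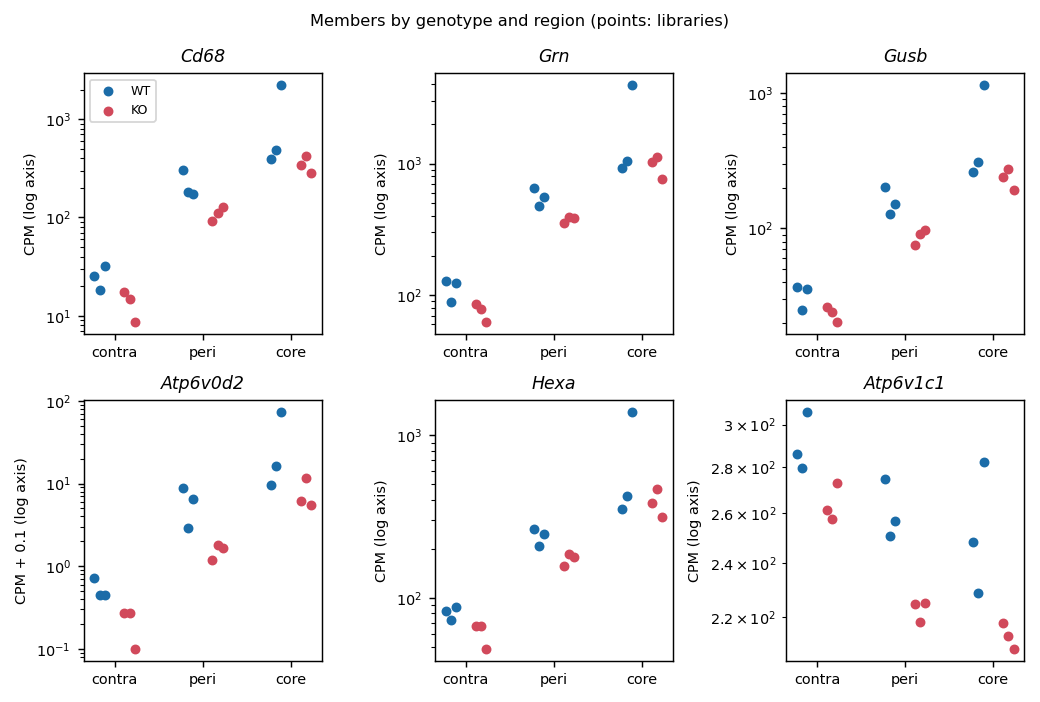
CPM on log axes (vertical) of Cd68, Grn, Gusb, Atp6v0d2, Hexa and Atp6v1c1 by region (horizontal), wild type in blue and knockout in red, 1 point per library. A small constant was added for Atp6v0d2, which has 1 library at 0. Knockout points of Cd68 and Grn lie below the wild type in contralateral and peri-infarct tissue, and in the core 1 wild-type library of both genes lies far above the rest.

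The difference between genotypes in the response to injury was tested directly as an interaction. It called 0 of 38 members and 0 of all genes in peri-infarct and in core tissue. At an unadjusted p under 0.05 there were 0 and 1 members, beside 112 and 366 of the 15329 genes tested. The fit without wild-type core replicate 3 again called 0 of 38 members and 0 of all genes. It had 0 and 7 members at an unadjusted p under 0.05, counts not read as a result because the number of all genes is not given beside them. DESeq2 with all libraries also called 0 members in both tissues. The smallest p values at the border were those of Atp6v1c2 (-1.20 ± 0.82), Mcoln1 (0.16 ± 0.12) and Atp6v1h (-0.11 ± 0.15). In the core they were those of Atp6v0c (-0.39 ± 0.18), Neu1 (-0.64 ± 0.31) and Atp6v0e (-0.90 ± 0.49). With SEs of this size, like responses in the genotypes are not shown.

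Other genes of the lysosome and its pump were listed apart from the 40. Their counts in the core stand against 29.1% higher and 11.5% lower among all genes in the wild type, and 19.7% and 3.31% in the knockout. Of 33 further hydrolases 28 were higher and 0 lower in the wild-type core (median 1.80), with Naglu, which degrades heparan sulfate, at 3.87 ± 0.48. In the knockout core 23 were higher and 1 lower (median 1.21), with the acid nuclease Dnase2a at 3.40 ± 0.49 and acid sphingomyelinase, Smpd1, lower at -0.37 ± 0.12. Of 28 further membrane proteins 19 were higher and 2 lower in the wild-type core and 14 higher and 0 lower in the knockout. The shares higher were 84.8% and 69.7% for the hydrolases and 67.9% and 50.00% for the membrane proteins. The peptide transporter Slc15a3 stood at 4.79 ± 0.60 and 4.31 ± 0.60 and the metal transporter Slc11a1 at 3.68 ± 0.52 and 3.67 ± 0.52, while Laptm4b (-0.64 ± 0.20) and Abca2 (-0.91 ± 0.30) were lower in the wild type.

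Of the 7 genes that tag hydrolases with mannose 6-phosphate and sort them, or modify sulfatases, 5 were higher in the wild-type core, 4 in the knockout core, and 0 lower. Nagpa, the uncovering enzyme, was at 2.58 ± 0.37 and 1.88 ± 0.36, the receptor Igf2r at 2.26 ± 0.43 in the wild type, and the sulfatase modifier Sumf1 at 0.90 ± 0.27 in the knockout. Assembly and accessory factors of the pump, 14 tested, gave 2 higher and 4 lower in the wild-type core and 1 higher and 1 lower in the knockout. The shares higher, 14.3% and 7.14%, were below those of all genes. Tcirg1 rose by 3.07 ± 0.40 and 2.68 ± 0.39 and the assembly factor Ccdc115 by 0.91 ± 0.23 in the wild type. Oxr1 (-0.97 ± 0.26) and Ncoa7 (-0.99 ± 0.31), which bind V1, were lower in the wild type, and the assembly factor Tmem199 (-0.35 ± 0.10) in the knockout.

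Regulators around Tfeb and the kinase complex mTORC1, which senses nutrients at the lysosome and holds Tfeb in the cytosol, were mixed. Of 19 tested, 10 were higher and 2 lower in the wild-type core and 4 higher and 0 lower in the knockout core, where 21.1% is near the share of all genes. Tfec, a Tfeb relative of macrophages, rose by 4.61 ± 0.77 and 5.11 ± 0.85, and Fnip2, a partner of folliculin, by 2.44 ± 0.41 and 1.89 ± 0.40. The kinase gene Mtor (-0.57 ± 0.16) and the GTPase gene Rraga (-0.26 ± 0.08) were lower in the wild type. The shares of all genes without wild-type core replicate 3 were 23.6% higher and 16.6% lower in the wild-type core and 29.6% and 27.8% in the knockout core. The wild-type and knockout counts were then 28 higher and 0 lower, and 28 and 2, for the hydrolases, 17 and 3, and 18 and 4, for the membrane proteins, and 5 and 0, and 5 and 1, for sorting. For the pump factors they were 2 and 5, and 2 and 7, and for the Tfeb and mTORC1 list 7 and 4, and 10 and 7. For the pump factors the shares higher were again below those of all genes.

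Markers of tissue outside the cortex also differed between libraries. Choroid plexus markers summed to 23.7 to 2317 CPM over the knockout contralateral libraries and to 21.4 to 2155 over the knockout peri-infarct ones, against 15.7 to 258 and 18.1 to 83.8 in the wild type. Striatal markers ranged over 151 to 379 CPM in wild-type and 379 to 742 in knockout contralateral tissue. Neutrophil markers, with 4 of 6 above the filter, summed to 3.17 to 4.22 CPM in contralateral, 2.26 to 5.13 in peri-infarct and 9.82 to 91.4 in core tissue of wild types, and in the same order to 1.74 to 3.23, 3.91 to 9.35 and 32.9 to 71.4 in knockouts. All 4 were called higher in both cores with all libraries, beside 29.1% of all genes for wild-type and 19.7% for knockout tissue. When wild-type core replicate 3 was left out, 2 of 4 were called in the wild-type core, beside 23.6% of all genes. The knockout core then had 4 of 4, beside 29.6%. In that fit 2 of 4 were higher in the knockout than in the wild-type core, beside 0.998% of all genes. Markers this low outside the core may have passed the filter through their core values. Their calls are therefore read as descriptions. Summed fibroblast and vessel markers were at 70.9 to 111 CPM in contralateral and 1099 to 3305 in core tissue of the wild type. The knockout had 63.8 to 93.00 and 1289 to 2499 CPM. The part of these cells in the values of the lysosomal and pump genes was not tested.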

How the data were processed

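Gene-level expected counts and TPM values for each library were used as the authors deposited them. HISAT2 2.0.4, Bowtie2, Subread and the build GRCm39 are named per the submitters' processing notes, with no roles, so the tool that estimated the counts is unknown here. Of 18922 genes, 3678 (19.4%) held values that were not whole, among them 7 of the 40 members. Expected counts were rounded, filtered by group, scaled by TMM and fitted with edgeR 4.0.16 (R 4.3.3) quasi-likelihood as 6 group means over 18 libraries, with 12 residual degrees of freedom. The 12 comparisons were adjusted by Benjamini-Hochberg over 15329 genes, and a gene was called at an adjusted p under 0.05. CPM below are counts divided by TMM-scaled library size. The SE of a log2 fold change was taken as its size divided by the square root of the F statistic. Isoform shares were computed from the deposited TPM and tested by exact permutation within strata, 2-sided, adjusted over 9 tests.

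The members and gene lists were chosen with earlier results of these data known. Values in every library were given for 20 genes fixed by name and for the 3 largest rises and falls among called members. Where none was called, the 3 smallest p values were named, and of the other lists the 2 called genes with the smallest p in each direction. One gene that this rule names is not reported here. Wild-type core replicate 3 was left out in a second fit of every comparison. Alternatives were DESeq2 1.42.0, its size factors in edgeR, no filter, limma 3.58.1 on log2(TPM + 1), only the compared libraries, a replicate block, and each library left out. Same-numbered libraries deviated together, at correlations of 0.398, 0.436 and 0.386, in wild-type peri-infarct and contralateral tissue, and not in every pair of the other comparisons. The labels do not say that a number marks an animal. Promoters came from a RefSeq table on GRCm38.p6, which is not the build of the counts, and the motif search was added after the data were seen. The code was tested on simulated data.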

Additional observations from a re-analysis of the deposited data

How the results depend on the processing

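Counts of called members moved with the setting most where few were called. Calls among all genes moved as well. The fit on only the compared libraries called 0 for the wild-type core against contralateral tissue, 18 for the wild-type and 26 for the knockout border against contralateral tissue, 0 for the wild-type and 25 for the knockout core against border. Of all genes that fit called 0, 1559, 2109, 0 and 3155 higher and 0, 391, 931, 0 and 2596 lower, in the same order. DESeq2 called 10, 12, 7, 1 and 4 for the wild-type border, the knockout border, the knockout core against border, the genotypes in the core and their mean. Of all genes it called 771, 994, 675, 43 and 165 higher and 41, 124, 220, 51 and 255 lower. The TPM scale gave 14, 14 and 9 members for the first 3 of these comparisons. Beside them stood 920, 1216 and 1256 of all genes higher and 4, 6 and 149 lower. The knockout border had 4 members with DESeq2 size factors in edgeR and 4 with no filter. All genes there gave 483 and 411 higher and 15 and 18 lower. With the replicate block the wild-type core against border had 0 members, where the main fit had 17. The wild-type border had 7, where the main fit had 6. Only the count for the wild-type core against border moved by over 1.5 times. Of all genes the block called 0 and 552 higher and 0 and 1 lower in those 2 comparisons.

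With 1 library left out, calls ran from 0 to 26 for the wild-type border, 0 to 28 for the knockout border, 0 to 26 for the wild-type and 0 to 27 for the knockout core against border, 0 to 3 for the genotypes in the core and 0 to 6 for their mean. In the same order, all genes called higher ran from 0 to 2192, 54 to 2121, 0 to 4159, 0 to 3752, 1 to 154 and 6 to 349. The member counts hold both directions. All genes called lower ran from 0 to 824 and 0 to 1175 for the wild-type and knockout border. For the core against border they ran from 0 to 1262 and 0 to 2438. For the genotypes, 1 to 318 of all genes were lower in the core and 7 to 802 in the mean. Core against contralateral calls ran from 25 to 31 in the wild type and 20 to 32 in the knockout. All genes called higher there ran from 3497 to 4982 and from 2220 to 4562, and all genes called lower from 929 to 3368 and from 173 to 4292. The d2 share ran from 3.38 to 7.06 percentage points for the core and from -3.49 to -1.04 for the genotype. The genotype differences of the G2 share (-1.96 to 7.89) and the Tcirg1 share (-3.74 to 1.59) reversed without wild-type core replicate 3, to -1.96 and 1.59. The cause of these moves was not tested. For single genes, 528 values kept their side of the threshold under other settings, 82 lost and 13 gained the call. With 1 library left out these numbers were 612, 156 and 8, and 0 reversed. Depth limits Atp6v0d2 and Atp6v0a4 in contralateral tissue.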
